A study of Mus musculus with 2 samples.

Results

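Listed miRNA genes outside the main miRNA stretches of the imprinted Dlk1-Dio3 locus on mouse chromosome 12 were examined: Mir770, Mir673 and Mir493 in and just behind the long noncoding gene Meg3, Mir341 and Mir370 in the long noncoding gene Rian, and Mir1247 in Dio3os, at the far end of the locus. They were taken by name, as the listed genes of the locus that lie outside the stretch antisense to Rtl1 and outside the cluster from Mir379 to Mir410, a rule that uses no measured value. Mir341 and Mir370 lie between those stretches, and the others lie before or behind both. All 6 were found among the 2202 miRNA genes of the files. Mir1188, Gm23912, Mir882 and Mir3072 also lie outside both stretches but are not on the list. RNA under 30 nt was sequenced from hippocampal tissue, labelled only as a layer, of female B6CASTF1/J mice (first-generation hybrids of a B6 mother and a CAST father, the CAST strain being wild-derived) aged 18 to 20 months, with no treatment named. There were 2 libraries, labelled biological replicates 1 and 2, in 1 group. Their tissue records carry different animal numbers but the same donor record, so whether the spread between them is biological or technical cannot be told apart. No second condition exists, and the one comparison the design allows is between the libraries.

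MicroRNAs are cut from hairpin precursors, and either arm of a hairpin can give a mature miRNA of about the size sequenced here. A miRNA pairs with target messenger RNAs mainly through its seed, the bases near its 5′ end. At Dlk1-Dio3 the noncoding RNAs Meg3 and Rian and most miRNAs are made from the maternal chromosome, while the protein-coding genes Dlk1, Rtl1 and Dio3 are expressed mainly from the paternal one. Dio3 encodes the deiodinase that inactivates thyroid hormone, Dio3os is transcribed away from it on the other strand, and Rian also carries small nucleolar RNAs. The files do not separate the alleles.

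The mature sequences are shown because the counts sum both arms of a hairpin, so that either arm, or both, can lie behind a level given below. All 6 genes were matched in RefSeq (GRCm38.p6). Capitals mark the seed, bases 2 to 8, and each line runs 5′ to 3′.
miR-770-5p: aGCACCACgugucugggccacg
miR-770-3p: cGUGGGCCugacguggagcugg
miR-673-5p: cUCACAGCucugguccuuggag
miR-673-3p: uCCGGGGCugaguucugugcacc
miR-493-5p: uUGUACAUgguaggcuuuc
miR-493-3p: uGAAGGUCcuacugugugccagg
miR-341-5p: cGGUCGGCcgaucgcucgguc
miR-341-3p: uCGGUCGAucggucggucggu
miR-370-5p: cAGGUCACgucucugcaguu
miR-370-3p: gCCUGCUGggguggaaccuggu
miR-1247-5p: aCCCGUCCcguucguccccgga
miR-1247-3p: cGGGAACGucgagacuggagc

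The 12 mature miRNAs carried 12 different seeds, so the genes do not form a seed family. Of these, 10 seeds occurred in no other of the 1738 mouse mature miRNAs in the RefSeq table. The seed of miR-370-5p was shared with miR-1193-3p (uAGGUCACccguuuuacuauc), whose gene Mir1193 lies in the Mir379 to Mir410 cluster of the same locus. Mir1193 gave 38.1 and 30.1 CPM in replicates 1 and 2, far below Mir370 in both. CPM here is a gene's sense count per 1000000 sense counts of that library's miRNA genes. The seed of miR-673-5p was shared with miR-6985-3p (cUCACAGCcaccuccucacag), whose gene on chromosome 19 had 5.32 and 5.09 CPM. No member shared a stretch of 20 bases with another hairpin on either strand, whereas 1133 of the 2202 hairpins (51.5%) did. Reads of 20 bases or more from the members thus matched no other annotated hairpin exactly, while shorter reads and the rest of the genome were not searched.

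By the GENCODE M21 annotation (mm10), 5 members lie on the plus strand and Mir1247 on the minus strand. Mir770 (ENSMUSG00000076451.1, chromosome 12, 109563692 to 109563785) starts 22691 bases behind the start of Meg3. Of the 11 annotated Meg3 transcripts 4 span it: it lies in an exon of 1 and in an intron of the other 3. Mir673 (ENSMUSG00000076316.1, 109571990 to 109572080) begins 264 bases behind the annotated end of Meg3, and Mir493 (ENSMUSG00000077025.2, 109580233 to 109580315) begins 8507 bases behind it. Neither lies in an annotated non-miRNA gene, so the name of a Meg3 miRNA holds for them by position only. Mir341 (ENSMUSG00000070101.1, 109611500 to 109611595) and Mir370 (ENSMUSG00000065433.1, 109618258 to 109618336) lie 7560 and 14318 bases into Rian, in an intron of each of the 2 Rian transcripts that span them, out of 20. Mir1247 (ENSMUSG00000080356.1, 110278048 to 110278129) overlaps an exon of 2 of the 4 Dio3os transcripts and lies wholly inside that exon in 1. It is 530087 bases away from Mir3072, the miRNA gene before it, and 939 bases from the start of Dio3.

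Mir1247 sits at the start of its host. In RefSeq, Dio3os begins at position 110278068, so that 21 of the hairpin's 82 bases lie inside the gene and 61 lie before its start, whereas the GENCODE gene begins 43 bases before the hairpin. The window from 250 bases before to 50 bases after the RefSeq start, chr12:110278019-110278318 on the minus strand (GRCm38.p6), is shown because it holds the whole hairpin, in capitals, from base 190 to base 271.
Dio3os window: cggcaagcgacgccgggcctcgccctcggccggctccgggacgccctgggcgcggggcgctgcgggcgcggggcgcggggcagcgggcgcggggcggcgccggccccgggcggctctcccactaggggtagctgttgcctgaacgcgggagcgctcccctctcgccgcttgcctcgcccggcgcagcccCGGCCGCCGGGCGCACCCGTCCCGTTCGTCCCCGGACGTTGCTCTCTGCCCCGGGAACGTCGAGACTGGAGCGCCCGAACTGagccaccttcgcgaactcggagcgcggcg

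The window was 80% G and C and held 53 CG pairs (the motif CG, which reads alike on both strands), against a median of 7 over 32851 RefSeq windows of the same length. Of those windows, 99.5% held fewer. The hairpin itself held 14 CG pairs and 74.4% G and C, against medians of 1 and 50.8% over all 2202 hairpins. In its own sequence the capitals mark the mature arms.
Mir1247: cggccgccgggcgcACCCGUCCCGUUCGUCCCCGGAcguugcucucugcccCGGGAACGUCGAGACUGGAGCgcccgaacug

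Mir341 stood out by a short repeat. Its hairpin is shown with the mature arms in capitals.
Mir341: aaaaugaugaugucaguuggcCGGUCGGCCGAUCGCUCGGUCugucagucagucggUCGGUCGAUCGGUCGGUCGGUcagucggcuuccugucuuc

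The run CGGU occurred 7 times in it, overlaps included and reading this strand only, while no other of 1005 RefSeq hairpins held it more than 3 times. The longer motif CGGUCGGU occurred 3 times, and on either strand it was found in 2 of the 1005 hairpins (0.199%). Mir341 had 12 CG pairs and Mir770 had 6, while Mir673, Mir493 and Mir370 had 1 or 2. The G and C content of the members ran from 53.0% in Mir493, near the median of 52.7% over tested hairpins, to 74.4% in Mir1247, and Mir770 stood at 70.2%. All 6 predicted minimum free energies were low for their length, between -0.62 kcal/mol per base in Mir770 and -0.44 in Mir341, against a median of -0.37 over all hairpins.

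The libraries held 2255838 sense counts in miRNA genes in replicate 1 and 4521208 in replicate 2. Reads mapping to several places, which are in no gene's count, numbered 1.20 and 1.29 per counted read, and unmapped reads were 29.0% and 11.2%. The neuron markers summed to 70118 and 55227 CPM, none of the 13 being at 0 in both libraries (Mir124a-2 was at 0 in replicate 2). Mir124a-1, Mir124a-2 and Mir124a-3 stood at 2.88 CPM or less in each library. Reads that map to several such numbered copies are in no gene's count, so these values need not show low levels. Markers of other organs summed to 645 and 380 CPM, with 4 of 10 at 0 in both. These 4, Mir1a-1, Mir1a-2, Mir133a-1 and Mir133a-2, are numbered copies too, so their zeros need not mean that the miRNAs were absent. Single genes weighed heavily in both sums: Mir132 stood at 38949 and 18329 CPM, and Mir375 at 613 and 308 CPM. The median log2 ratio of replicate 2 over replicate 1 was -0.06 over the 11 tested neuron markers. For the 4 tested markers of other organs it was 0.44. Intervals given below are exact 95% intervals of counting error. Those of a level, a share or a ratio within a library rest on 1 library. Those of a fold or log2 ratio between the libraries rest on the counts of both. Means are ± SD over both libraries (n = 2). Levels were not divided by hairpin length, since a read spans a whole mature miRNA.

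All 6 members were detected in both libraries, each above 1 CPM. Together they took 1.34% (95% Clopper-Pearson interval 1.32 to 1.35) of the counts in replicate 1 and 0.873% (0.864 to 0.881) in replicate 2, or 1.11% ± 0.330 (SD, n = 2). Of the counts of the 66 miRNA genes from Mir770 to Mir1247 they took 10.9% (10.74 to 10.97) and 8.44% (8.36 to 8.52), or 9.65% ± 1.71. Across the whole locus 13 genes had no count in either library, and none of the members was among them.

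Mir770 was the most abundant of them. It had 20777 counts in replicate 1, or 9210 CPM (9086 to 9336), while replicate 2 held 27547 counts, or 6093 CPM (6021 to 6165), a mean of 7652 ± 2204 CPM. By mean it ranked 28 among all miRNA genes and 4 in the locus, behind Mir127, Mir411 and Mir487b. In replicate 2 Mir382 (6793 CPM) and Mir433 (6741 CPM) also stood above it, so its place in the locus does not hold in both libraries. Mir770 alone made up 68.8% of the members' counts in replicate 1 and 69.8% in replicate 2. Ranks among all miRNA genes, here and below, rest on counted reads, which leave out reads mapping to several places. As 51.5% of the hairpins share a 20-base stretch with another and no member does, genes with such copies can rank too low beside the members.

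Mir370, a miRNA studied in lipid metabolism, had 4713 counts in replicate 1, or 2089 CPM (2030 to 2150), and in replicate 2 it had 3061, or 677 CPM (653 to 701). Its mean was 1383 ± 999 CPM and its rank 85. Mir341, its neighbour in Rian, had 2431 counts, or 1078 CPM (1035 to 1121), and 6194 counts, or 1370 CPM (1336 to 1405), with a mean of 1224 ± 207 CPM and rank 89. The Mir370 values lay on both sides of the Mir341 values, so the order of the Rian pair by mean is within their spread.

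Mir673 had 1497 counts in replicate 1, or 664 CPM (630 to 698), and 2337 in replicate 2, or 517 CPM (496 to 538), with a mean of 590 ± 104 CPM. It lay below Mir341 and Mir370 in each library, although its value in replicate 1 was close to the 677 CPM of Mir370 in replicate 2. Mir1247, a miRNA studied in cartilage, stood at 312 CPM (289 to 336, from 703 counts) in replicate 1 and at 12.8 CPM (9.74 to 16.6, from 58 counts) in replicate 2. Mir493 was low in both, at 43.4 CPM (35.3 to 52.9, from 98 counts) and 56.0 CPM (49.3 to 63.3, from 253 counts). By mean Mir1247 (162 ± 211 CPM) stood above Mir493 (49.7 ± 8.85 CPM), yet the single values of Mir1247 enclosed both of Mir493, so these last ranks do not hold beyond the spread.

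**Figure D1:**
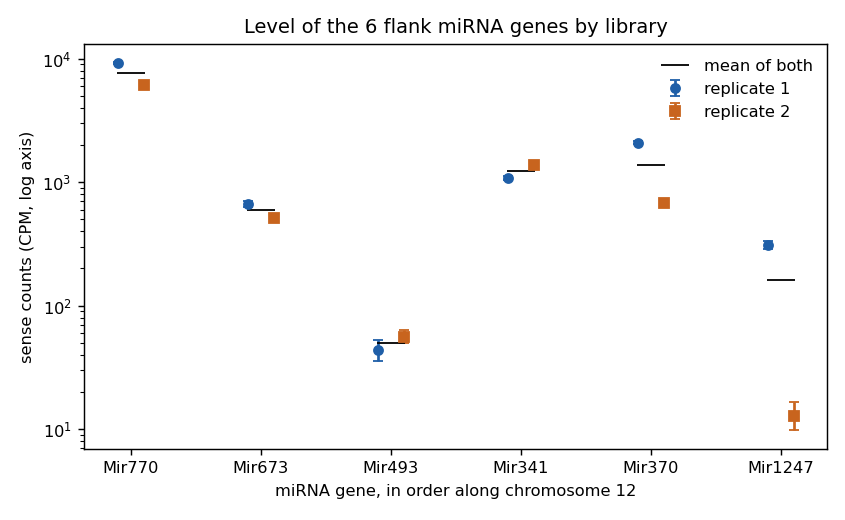
Level of each member in CPM (log axis), in order along the chromosome, with replicate 1 as circles, replicate 2 as squares, exact 95% Poisson intervals as bars and the mean of both as a line. Mir770 lies above all others in both libraries, and Mir1247 drops from 312 CPM in replicate 1 to 12.8 CPM in replicate 2.

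None of these values came from the opposite strand. The antisense count was 0 for all 6 members in both libraries, and the count made without regard to strand equalled the sense count. This differed from the nearest gene behind Mir493, Mir337, which faces Mir3544 on the other strand: it had 1732 and 6705 sense counts but 0 counts in the column without strand.

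The 60 other miRNA genes of the locus gave the surroundings of these levels. In the Rtl1-antisense stretch (13 genes from Mir337 to Mir136), 10 reached 1 CPM in both libraries and were led by Mir127 at 35995 ± 6023 CPM, Mir433 at 7218 ± 674 CPM and Mir434 at 1584 ± 196 CPM. In the Mir379 to Mir410 cluster (43 genes), 34 did so, where the highest means were 9333 ± 2063 CPM for Mir411, 8508 ± 1290 CPM for Mir487b and 6385 ± 578 CPM for Mir382. The median of the mean levels was 907 CPM over the 6 members, 735 CPM over the 10 tested genes of the first stretch and 338 CPM over the 34 of the cluster. Levels within each stretch ran over more than the gap between these medians, and no test of the difference was made.

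Genes lying close together differed widely in level. Between Mir341 and Mir370 in Rian lies Mir1188, 226 bases behind Mir341, with 32.4 CPM in replicate 1 and 29.9 CPM in replicate 2. Mir3071, the miRNA gene before Mir341, had no sense count, but it overlaps Mir136 on the other strand, which had 271 and 214 CPM. Gm23912, listed as a miRNA gene 57 bases before Mir370, had none either, nor had Mir882, the next miRNA gene behind Mir370. A count of 0 allows up to 1.33 CPM in replicate 1 and 0.664 CPM in replicate 2, for counting error only. Mir770 was 13.9 times (13.2 to 14.6) as high as Mir673, the next gene, in replicate 1 and 11.8 times (11.3 to 12.3) in replicate 2. Mir673 in turn was 15.3 times (12.4 to 18.9) and 9.24 times (8.11 to 10.6) as high as Mir493. Mir3072, before Mir1247, had 97.5 and 118 CPM.

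**Figure D2:**
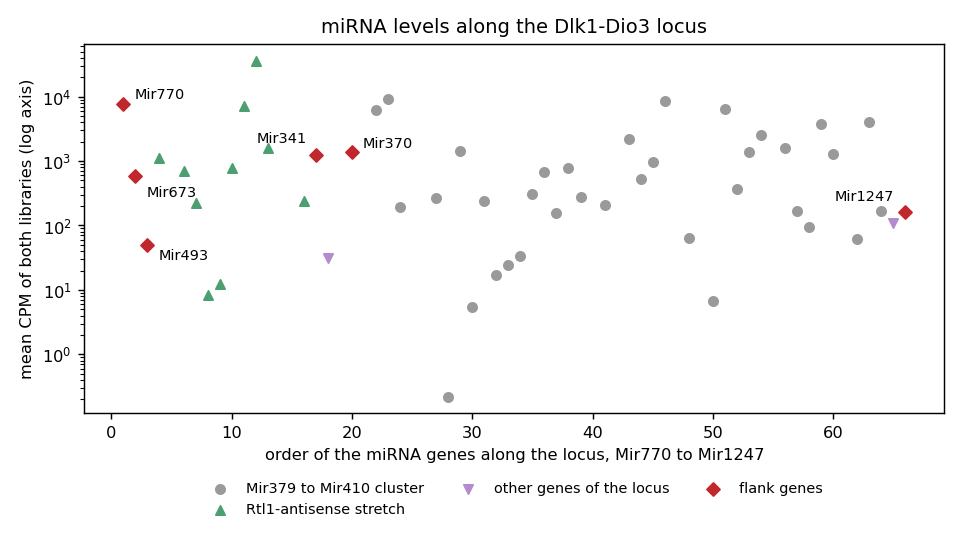
Mean level of both libraries (CPM, log axis) of the locus's miRNA genes with a count, in their order from Mir770 to Mir1247, with the members as diamonds and the Rtl1-antisense stretch, the Mir379 to Mir410 cluster and other genes by shape. Mir770 at 7652 CPM is the fourth of the locus by mean, and the members spread down to Mir493 at 49.7 CPM.

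Between the libraries, Mir1247 and Mir370 were lower in replicate 2, and the other 4 members differed by less than 2-fold. The 495 genes that averaged at least 1 CPM entered an exact binomial test (two-sided) of each gene's counts given their sum, with Benjamini-Hochberg adjustment over all of them. A call needed an adjusted p below 0.05 together with a fold of at least 2. Only counting error is noise in that test, so it speaks of these 2 libraries and of no condition. Of the members 2 of 6 were called, both lower in replicate 2 and 0 higher. Over all genes tested 87 (17.6%) were called, 68 (13.7%) lower and 19 (3.84%) higher in replicate 2. With edgeR's TMM factors that split was 51 lower and 26 higher, and with DESeq2 size factors 48 and 27, since these scalings raise every log2 ratio by 0.12 and 0.19.

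Mir1247 was 24.3-fold lower (18.6 to 32.3) in replicate 2, a log2 ratio of -4.59 with 0.5 counts added, against a median of -0.19 over all genes tested. This was the lowest ratio of the 52 tested genes of the locus, and the fourth lowest of all 495. Mir543 came next in the locus at -2.50. The exactTest of edgeR, with a common biological coefficient of variation of 38.9%, called 3 genes (0.606% of those tested), Mir1247 among them and Mir370 not. That error was estimated from the same difference with 1 library on each side, so it adds no support to the call of Mir1247 and takes none from that of Mir370. Its value in replicate 2 rests on 58 counts.

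Mir370 was 3.09-fold lower (2.95 to 3.23) in replicate 2, with a log2 ratio of -1.63, the fourth lowest of the locus. Among all 495 genes tested it ranked 41 from the lowest. Both calls stand against counting error only, since the spread between samples cannot be estimated apart from the difference itself. The other members were under the 2-fold bound. Mir770 had a log2 ratio of -0.60 (-0.62 to -0.57) and Mir673 of -0.36 (-0.45 to -0.27), the latter with a binomial adjusted p of 3.28e-13. Mir341 had 0.35 (0.28 to 0.41, binomial adjusted p = 1.01e-23) and Mir493 0.36 (0.02 to 0.72, binomial adjusted p = 0.0657). For Mir493 that adjusted p was 0.00965 with TMM factors, 0.00252 with DESeq2 size factors, 0.0479 in the column without strand and 0.129 with multimapping reads in the total, so it lies on either side of 0.05, with the fold under 2 throughout. Small p-values were common: 265 of the 495 genes (53.5%) had a binomial adjusted p under 0.05. The median absolute log2 ratio over all genes was 0.51.

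**Figure D3:**
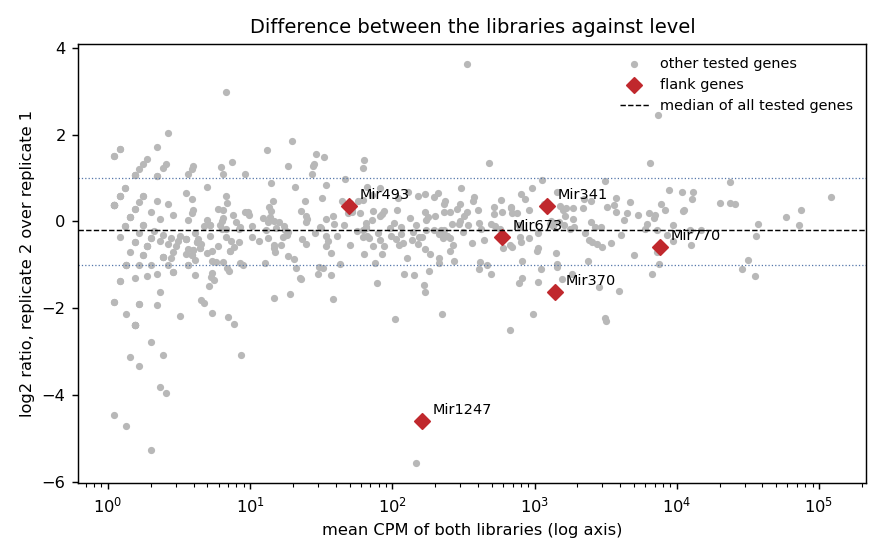
Log2 ratio of replicate 2 over replicate 1 against the mean level (CPM, log axis) for the 495 genes tested, with the members as diamonds, the median of all genes (-0.19) dashed and the 2-fold bounds dotted. Mir1247 at -4.59 lies far below most genes of like level, Mir370 lies at -1.63, and the other 4 members lie between the bounds.

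Ratios of members within a library need no scaling. They come from the same counts as the log2 ratios, so they add no separate support. Each also mixes the changes of both its genes. Mir341 stood at 0.516 times (0.491 to 0.542) the level of Mir370 in replicate 1 and at 2.02 times (1.94 to 2.11) in replicate 2, so that the order of the genes in Rian turned over. Mir673 stood at 2.13 times (1.95 to 2.33) the level of Mir1247 in replicate 1 and at 40.3 times (31.1 to 53.2) in replicate 2. By contrast Mir493 stood at 0.0403 times (0.0326 to 0.0493) the level of Mir341 in replicate 1 and at 0.0408 times (0.0359 to 0.0463) in replicate 2, intervals that overlap. Mir341 rose from 8.04% to 15.7% of the members' counts, Mir370 fell from 15.6% to 7.76%, and Mir1247 from 2.33% to 0.147%.

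The calls elsewhere in the locus were set beside these. Of the 10 tested genes of the Rtl1-antisense stretch 0 were called by the binomial test, and their log2 ratios ran from -0.95 to 0.95 with a median of -0.13. Of the 34 tested genes of the Mir379 to Mir410 cluster 5 were called lower and 2 higher, with a range of -2.50 to 2.98 and a median of -0.18. The median over the 6 members was -0.48. Mir1188, between the Rian pair, had a log2 ratio of -0.12 and Mir3072, the nearest gene to Mir1247, of 0.27, and neither was called.

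**Figure D4:**
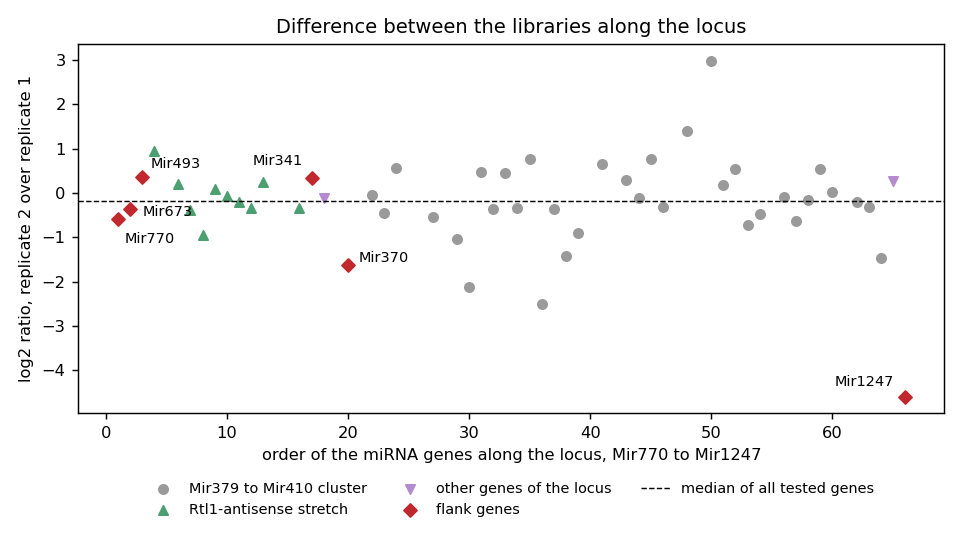
Log2 ratio of replicate 2 over replicate 1 for the 52 tested genes of the locus, in their order from Mir770 to Mir1247, with shapes by stretch and the median of all tested genes dashed. Mir1247 at -4.59 is the lowest point and Mir370 at -1.63 lies below its neighbours. The members at the Meg3 end lie on both sides of the dashed line, from -0.60 in Mir770 to 0.36 in Mir493.

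Marker lists and base composition were set beside the Mir1247 and Mir370 values. The choroid plexus and ependyma list summed to 3616 CPM in replicate 1 and 1671 CPM in replicate 2. Of its 15 tested genes 7 were called lower and 0 higher (median log2 ratio -1.06), and of its 17 genes only Mir449b was at 0. Related genes were among the 7, such as Mir34b with Mir34c and Mir200a with Mir200c, so these are not 7 separate markers. Mir200b (0.12), Mir449a (0.20) and Mir764 (0.33) had ratios above 0 and were not called. The list's highest members were Mir34c, at 1597 and 366 CPM, and Mir204, at 1034 and 800 CPM. The list's lowest log2 ratio was -2.24, in Mir200c. Markers of the sensory and midline cluster fell from 301 to 137 CPM, with 1 of 3 called lower. For neurons 1 of 11 tested markers was called lower, and for oligodendrocytes, microglia and leukocytes, and vessels 0 of 13 were called. Calls in the other direction were 1 of 3 blood markers (Mir144, 17.3 and 48.9 CPM, the list summing to 138 and 136 CPM) and 1 of 4 tested markers of other organs (Mir122, 14.6 and 43.1 CPM). The part of these cells in the values of Mir1247 and Mir370 was not tested, and in tissue RNA fewer cells of a type and less RNA per cell cannot be told apart.

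The 20 tested genes whose hairpins had 70% G and C or more, Mir1247 and Mir770 among them, had a median log2 ratio of -0.31. Of these 20, 5 were called lower, Mir1247 itself included, and 0 higher, against 13.7% lower and 3.84% higher over all genes tested. The ratio did not fall steadily with G and C content: the medians over 4 classes of about equal size, from low to high content, were -0.05, -0.34, -0.20 and -0.30, with 10, 22, 15 and 21 called lower. Across the 495 genes the log2 ratio and the G and C content of the hairpin had Pearson's r = -0.13 and Spearman's rho = -0.11, a description over genes that share 2 libraries. Mir770, at 70.2%, had a ratio of -0.60 where Mir1247, at 74.4%, had -4.59. The part of base composition in these values was not tested.

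The genes outside the members with the most similar pair of levels were sought by the distance between log2(CPM + 1) values over both libraries. Levels are of counted reads, without those mapping to several places, so a gene with copies elsewhere can stand below the level of its mature miRNA. For Mir770 the nearest genes were Mir92b (8970 and 5481 CPM) and Mir221 (10040 and 5067 CPM). For Mir341 they were Mir15a (992 and 1319 CPM) and Mir409 of the same locus (1300 and 1312 CPM), for Mir673 Mir181a-1 (605 and 538 CPM) and Mir125b-2 (730 and 477 CPM). For Mir370 they were Mir101b (2216 and 879 CPM) and Mir455 (1517 and 710 CPM), and for Mir493 Snord43 (42.6 and 57.5 CPM) and Mir24-2 (47.0 and 56.8 CPM). Mir1247 had no close match: the nearest, Mir26a-1 (287 and 5.97 CPM), lay 0.995 log2 units away and Mir200c (172 and 36.3 CPM) lay 1.67 away, against 0.467 or less for the genes listed with the other members.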

How the data were processed

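The deposited values are raw counts of reads per miRNA gene, 1 file per library, without strand, sense and antisense, per the files' columns; the strand of each column was read from the totals rows. The assembly mm10 and annotation M21 are named in the README files deposited with them. Which aligner and counter made them is not given in the sources used here. The 4 rows of totals were left out of library sizes. The rule for the members uses no measured value, but the members, lists and tests were proposed with earlier results of these data known.

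Genes were named and placed by GENCODE M21, and mature miRNAs, hairpins and windows at gene starts come from RefSeq tables (GRCm38.p6). Sense counts were scaled to CPM. The locus is every annotated miRNA gene from Mir770 to Mir1247. Log2 ratios had 0.5 counts added. Tests used scipy 1.17.1 and edgeR 4.0.16 (intercept-only common dispersion, then exactTest), with size factors from DESeq2 1.42.0, and hairpins were folded with RNAfold 2.7.2. Besides the 6 members the rule named the other locus genes outside both stretches, each member's neighbours, the 3 highest genes of each stretch, 2 genes of nearest level per member, seed sharers, and the 2 highest genes of a marker list that moved with a member. Genes outside that rule (Mir543, Mir449b, Mir3544, Mir136, Mir124a-1, Mir124a-2, Mir124a-3, Mir1a-1, Mir1a-2, Mir133a-1, Mir133a-2, Mir144, Mir122, Mir132, Mir375, Mir34b, Mir200a, Mir200b, Mir449a, Mir764) were named after their values were seen.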

Additional observations from a re-analysis of the deposited data

How the results depend on the processing

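Under TMM factors, DESeq2 size factors, the column without strand, no filter on low counts, and a mean of 10 CPM or more, the members called were the same 2, Mir370 and Mir1247. With edgeR's exactTest, whose error comes from the same 1 library against 1, 1 member was called, Mir1247, and 3 genes in all. With the mean of 10 CPM or more, which tests 310 genes, 53 genes were called. All 24 log2 ratios of members, under 4 scalings or columns, kept their direction and their call, although the adjusted p of Mir493 crossed 0.05 under 3 of them. With multimapping reads in the denominator the members' share was 0.495%, and 4 of 6 levels moved by more than 1 SD, because the total more than doubles by construction. Leaving out a replicate gave the other library's value, which lies within 1 SD of a mean of 2 by construction, and no comparison can be made from 1 library. No paired analysis was possible because there is 1 group. Depth limits Mir1247 most, with 58 counts in replicate 2, and Mir493, with 98 in replicate 1.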
